A study of Mus musculus with 8 samples.

Results

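The rows of the deposited gene count table that start between 145000000 and 148500000 on mouse chromosome 4 (build GRCm38) were described library by library. The interval holds a cluster of KRAB zinc finger genes with Zfp984 among them, and was chosen by the values of Zfp984, the row of the cluster that differed between M_KO and M_WT in the authors' deposited table. It held 125 of the 54532 rows of the table, of which 21 were C2H2 zinc finger rows and 104 were other genes and pseudogenes. The RNA came from macrophages of the mouse peritoneal cavity given thioglycollate broth, which recruits leukocytes there as an irritant, and was sequenced in bulk. Libraries were 3 M_KO (M_KO_5944, M_KO_5645 and M_KO_5642), 1 F_KO (F_KO_5639), 3 M_WT (M_WT_5643, M_WT_6258 and M_WT_6255) and 1 F_WT (F_WT_5638), where KO is a knockout of Men1, the gene of menin, a scaffold of histone methyltransferase complexes. All 8 libraries came from thioglycollate-treated mice. The labels do not say what the letters M and F stand for, and strain, age, the Men1 allele and any Cre driver are not given in them. The number in a library name is read as an animal number, and p-values measure the spread between these libraries.

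KRAB zinc finger proteins bind DNA through tandem C2H2 fingers and recruit the corepressor Trim28 through their KRAB domain. Trim28 in turn brings the histone methyltransferase Setdb1 and heterochromatin proteins, and many members of the family silence transposable elements in mice. The genes arose by repeated local duplication, so neighbours in a cluster are alike in sequence, and reads of one can be hard to tell from reads of another.

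The likeness of neighbours is visible in the 250 bases upstream of the RefSeq start, printed 5′ to 3′ on the gene's own strand (GRCm38.p6) for Zfp984, for its closest relative by upstream sequence, Gm13212, and for Zfp985, a neighbour with almost no reads. Capitals mark the motifs GGGCGG (GC box) and CCAAT, searched on both strands together with TATAAA, so CCAAT on the other strand reads ATTGG.
Zfp984, chr4:147809789-147810038, minus strand: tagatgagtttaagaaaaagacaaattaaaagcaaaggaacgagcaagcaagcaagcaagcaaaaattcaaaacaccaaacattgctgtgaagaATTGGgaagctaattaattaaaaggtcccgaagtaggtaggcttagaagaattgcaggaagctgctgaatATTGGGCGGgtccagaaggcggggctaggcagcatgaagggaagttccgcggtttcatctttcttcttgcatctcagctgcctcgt
Gm13212, chr4:145584950-145585165, plus strand: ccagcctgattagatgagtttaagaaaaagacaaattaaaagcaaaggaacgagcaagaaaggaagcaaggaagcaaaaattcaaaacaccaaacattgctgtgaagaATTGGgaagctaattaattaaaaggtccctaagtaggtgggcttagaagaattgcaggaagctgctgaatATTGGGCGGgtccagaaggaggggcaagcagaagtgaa
Zfp985, chr4:147553027-147553276, plus strand: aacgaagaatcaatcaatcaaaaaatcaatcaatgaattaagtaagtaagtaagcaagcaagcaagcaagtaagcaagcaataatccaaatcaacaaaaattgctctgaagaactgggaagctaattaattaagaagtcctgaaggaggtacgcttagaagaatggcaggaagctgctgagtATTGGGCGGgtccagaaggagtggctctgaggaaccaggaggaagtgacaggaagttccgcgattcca
The Gm13212 window is 216 bases long because 34 bases inside the deposited gene span were left out. Over the full windows, Gm13212 was 85.7% and Zfp985 68.1% identical to Zfp984, Zfp981 was 77.5% identical and Zfp933 51.2%. All 3 printed windows held 1 GC box overlapping 1 CCAAT motif, 83 bases before the start in Zfp984 for the GC box, and none held TATAAA. Over 32851 RefSeq promoter windows of the same length, 32.7% held GGGCGG, 33.8% CCAAT and 12.4% TATAAA. The Zfp984 window held 7 CG dinucleotides, the full Gm13212 window 4 and the Zfp985 window 5, against a median of 6 over all windows. Zfp985 had 0 to 13 counts per library, whereas Gm13212 had at least 7.97 CPM in every library, where CPM is the read count scaled to library size by TMM.

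Macrophage identity and genotype were checked first. All 8 macrophage markers were at 1 CPM or more in every library, T cell markers summed to at most 0.622 CPM, and 3 of 4 eosinophil markers (Prg2, Epx and Ear6) and the neutrophil marker Ly6g had at most 3 counts in every library. B cell markers summed to 182.9 to 550.5 CPM in M_KO, 606.2 in F_KO, 119.3 to 374.7 in M_WT and 364.0 CPM in F_WT. Neutrophil markers summed to 252.0 to 615.7 CPM in M_KO, 536.4 in F_KO, 203.6 to 384.3 in M_WT and 249.6 CPM in F_WT. Dendritic cell markers summed to 8.09 to 11.9 CPM in M_KO, 12.0 in F_KO, 14.2 to 29.4 in M_WT and 14.3 CPM in F_WT, so every KO library was below every WT library. The macrophage markers summed to 17909 to 20555 CPM in M_KO, 24406 in F_KO, 20798 to 32119 in M_WT and 24486 CPM in F_WT, and every M_KO library was below every M_WT library. Mast cell markers summed to 1.60 to 22.3 CPM in M_KO, 5.20 in F_KO, 2.99 to 16.6 in M_WT and 2.61 CPM in F_WT. No marker list had the 4 highest libraries of Zfp984 described below, and the part of other cells in the levels was not tested. Men1 itself was 6.45 to 11.7 CPM in the 4 KO libraries and 17.1 to 25.7 CPM in the 4 WT libraries, which did not overlap. Libraries held 18206427 to 22853583 counts in all. Where a row had no count, up to 3 remained possible by counting error alone, a floor of 0.120 to 0.170 CPM.

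A row was called on in a library at 1 CPM or more, off at 3 counts or fewer, and in between otherwise. Of the 125 rows, 36 were on in at least 1 library, 26 exceeded 3 counts somewhere without reaching 1 CPM, and 63 had 3 counts or fewer in every library, 35 of them with no count at all. The rows included 52 processed pseudogenes, 43 protein-coding genes and 11 lincRNAs. The number of rows on was 30 in M_KO_5944, 30 in M_KO_5645, 29 in M_KO_5642 and 32 in F_KO_5639, against 27 in M_WT_5643, 28 in M_WT_6258, 31 in M_WT_6255 and 29 in F_WT_5638. The counts of rows on overlapped between genotypes, and 23 rows were on in all 8 libraries. Of the 21 zinc finger rows, 2, 1, 1 and 0 were in between in those KO libraries, against 6, 3, 5 and 4 in WT. Off rows numbered 11, 12, 12 and 13 against 8, 11, 9 and 9. The in-between counts did not overlap between genotypes, but they rest on rows below 1 CPM and include Zfp984 in M_WT. The M values of Zfp984 chose the interval, and without that row M_WT_6258 would not exceed M_KO_5944. Nothing about genotype is therefore read from these counts. In the whole table, in-between rows overlapped, at 3493 to 4319 in KO and 3526 to 4162 in WT.

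**Figure D1:**
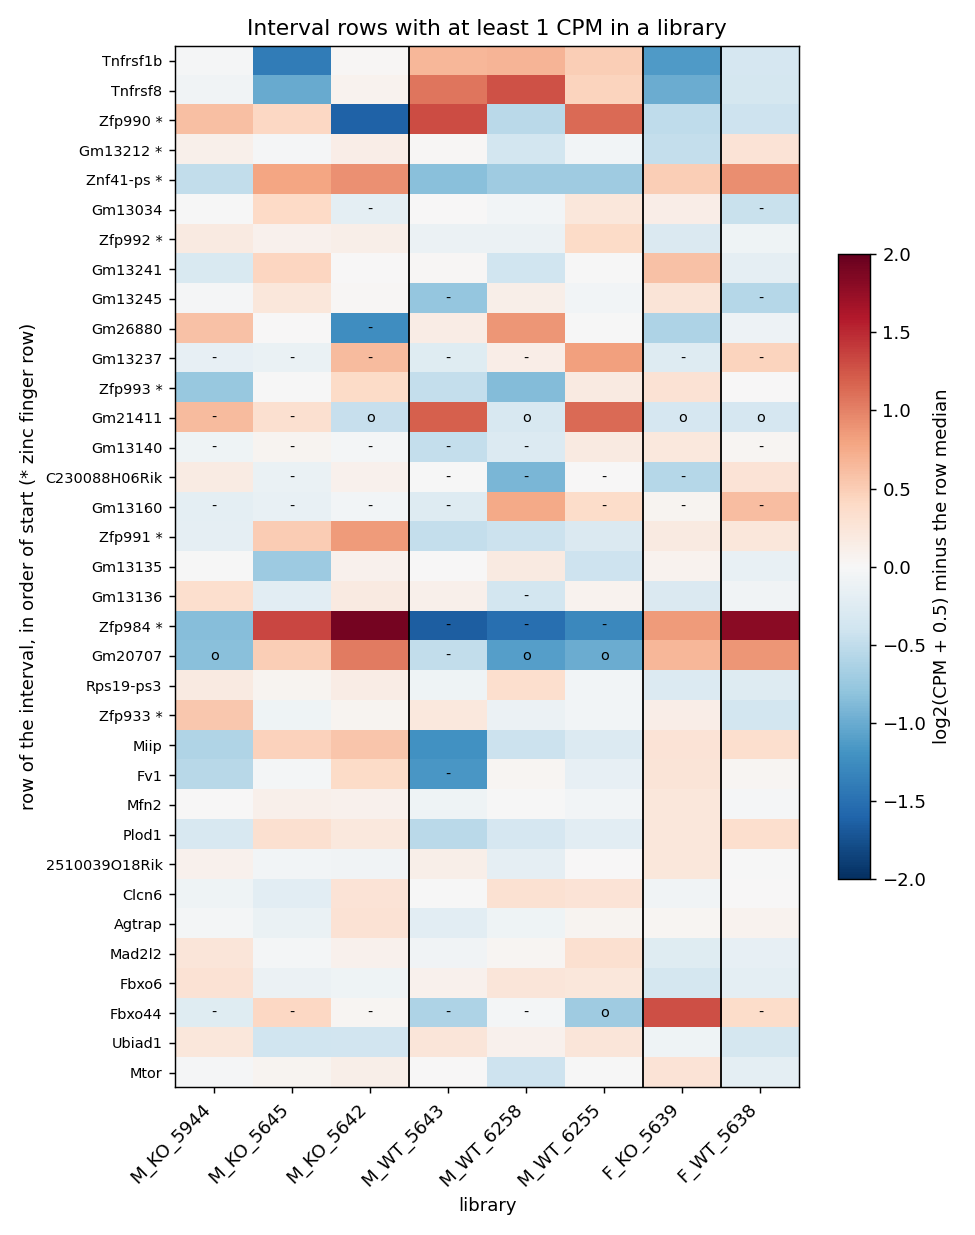
Level of 35 of the 36 rows of the interval with at least 1 CPM in a library, in chromosomal order (rows) and by library (columns, M_KO, M_WT, F_KO, F_WT). Colour is log2(CPM + 0.5) minus the row's median over the 8 libraries, "o" marks a library with 3 counts or fewer, "-" one between off and 1 CPM, and an asterisk marks zinc finger rows; Zfp984 is below 1 CPM in the 3 M_WT libraries only.

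The zinc finger rows separated into a set with reads everywhere and a set with few reads. Sharing of transcript sequence was not measured for the rows with few reads. How reads that match several genes were counted is not given, so low counts there need not mean low expression. Zfp990, Gm13212, Znf41-ps, Zfp992, Zfp993, Zfp991 and Zfp933 were on in all 8 libraries. Zfp984 was on in all 4 KO libraries and in F_WT_5638, and in between in the 3 M_WT libraries, where it had 13 to 19 counts; it was off in no library. Another 9 zinc finger rows (Zfp978, Zfp979, Zfp980, Zfp981, Zfp985, Zfp988, Zfp989, Zfp534 and Rex2) never reached 1 CPM, and 4 (Zfp982, Zfp986, Zfp987 and Zfp600) had at most 3 counts in any library. In FPKM, which scales by gene length, the 8 rows on averaged 5.46 for Zfp991, 5.15 for Zfp992, 3.83 for Zfp990, 3.60 for Znf41-ps, 3.04 for Gm13212, 1.88 for Zfp933, 1.82 for Zfp984 and 1.62 for Zfp993 over the 8 libraries. Zfp984 was thus near the low end of the expressed rows in mean level, although its libraries differed the most on the CPM + 0.5 scale.

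Strictly, a row is switched if at least 1 library is on and at least 1 is off. By this rule 3 of the 36 rows were switched, against 650 of 13682 rows of the whole table (4.75%). None of the 3 is annotated as a C2H2 zinc finger gene, and none exceeded 2.10 CPM in any library. The lincRNA Gm20707 was on in M_KO_5645, M_KO_5642, F_KO_5639 and F_WT_5638 and off in M_KO_5944, M_WT_6258 and M_WT_6255. Fbxo44, an F-box ubiquitin ligase subunit, was on in F_KO_5639 alone, at 2.10 CPM. Gm21411 was on in M_WT_5643 and M_WT_6255 and off in M_KO_5642, F_KO_5639, M_WT_6258 and F_WT_5638. None of the 3 divided the libraries by genotype. A second criterion, a gap of at least 2 on the log2(CPM + 0.5) scale between neighbouring libraries, was met by 0 of 36 rows in the interval and by 84 of 13682 rows of the table (0.614%). With a gap of 1 it was met by Zfp984 and Zfp990, and by 722 rows of the table (5.28%).

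Zfp984 (ENSMUSG00000078495, 147753974 to 147809788, minus strand) had the largest ratio of highest to lowest library among the 36 rows on the CPM + 0.5 scale, 11.8-fold. It was 1.47 CPM in M_KO_5944, 8.45 in M_KO_5645, 12.9 in M_KO_5642 and 5.92 in F_KO_5639, against 0.640 in M_WT_5643, 0.746 in M_WT_6258, 0.962 in M_WT_6255 and 11.9 CPM in F_WT_5638. The raw counts were 26, 165, 324 and 124 in those KO libraries, against 13, 14, 19 and 273 in the WT libraries, in the same order. The M groups did not overlap, but M_KO_5944 lay closer to the M_WT libraries than to the other M_KO libraries, and the F_WT library was the second highest of all. In CPM the highest library was 20.2-fold the lowest, and the gap between the 4th and the 5th highest library was 3.26-fold on the CPM + 0.5 scale. M_KO averaged 7.62 ± 5.78 CPM and M_WT 0.782 ± 0.164 CPM (SD, n = 3 each), a log2 fold change of 3.27 (SE 0.76), and the authors' deposited table gives 3.28. These M values chose the interval and are given as a description. In bulk RNA, fewer cells of a type and less RNA per cell cannot be told apart. In the F pair, which did not choose it, F_KO was lower than F_WT, with a ratio of 0.499 (exact Clopper-Pearson interval of the counts 0.400 to 0.619, counting error only), and 1 library per genotype gives no replicate check.

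**Figure D2:**
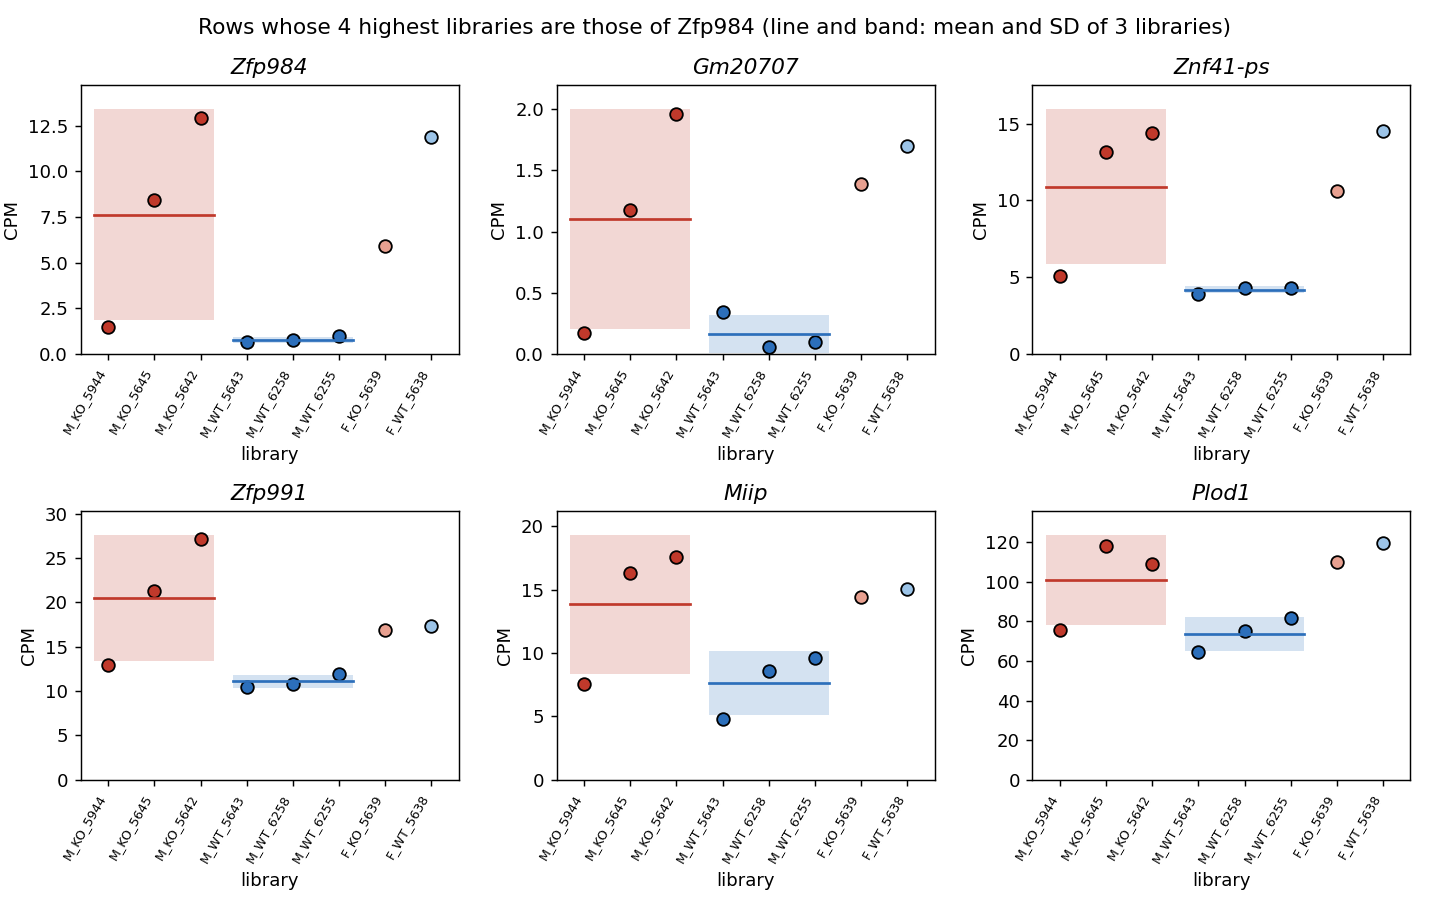
CPM of 6 rows whose 4 highest libraries are M_KO_5645, M_KO_5642, F_KO_5639 and F_WT_5638, by library, with lines and bands for the mean and SD of the 3 M_KO and the 3 M_WT libraries. By this choice of rows, M_KO_5944 sits below those 4 libraries in each of the 6 panels and F_WT_5638 among them.

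The high Zfp984 libraries were M_KO_5645, M_KO_5642, F_KO_5639 and F_WT_5638, which are 3 KO and 1 WT. This division matched neither genotype nor letter. The 4 libraries carry numbers beginning with 56, as does M_WT_5643, where Zfp984 was lowest. The same 4 libraries were the highest in 7 of the 36 rows (19.4%), against 532 of 13682 rows of the table (3.89%), 39 of 771 on the rest of chromosome 4 (5.06%) and 20 of 627 zinc finger rows elsewhere (3.19%). In the adjoining windows of the same length it was 1 of 16 rows before the interval and 2 of 40 after it. One of the 7 is Zfp984, which defined the set, and 2 pairs among the 7 share exon bases (Zfp984 and Gm20707) or most of their sequence (Znf41-ps and Zfp991). The 4 KO libraries were the highest in 1 of 36 rows (Mfn2), against 3.22% of the table, and the 4 WT libraries in 0 of 36, against 2.42%. The measure was added after the values had been seen, and nothing was tested with it.

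Gm20707 (147782319 to 147809840, minus strand) lies within and just beyond Zfp984 and shares 282 exon bases with it on the same strand, which is 11.2% of its own and 9.68% of Zfp984's exon bases. It was 0.170 CPM in M_KO_5944, 1.18 in M_KO_5645, 1.96 in M_KO_5642 and 1.38 in F_KO_5639, against 0.345 in M_WT_5643, 0.0533 in M_WT_6258, 0.101 in M_WT_6255 and 1.69 CPM in F_WT_5638. Its order followed that of Zfp984 in which 4 libraries were high, and the M groups overlapped, since M_KO_5944 had 3 counts and M_WT_5643 had 7. How far reads of one gene were counted for the other cannot be told apart in these files.

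Znf41-ps, an unprocessed zinc finger pseudogene at 145825237 to 145829942 on the plus strand, was never off. It was 5.09 CPM in M_KO_5944, 13.2 in M_KO_5645, 14.4 in M_KO_5642 and 10.6 in F_KO_5639, against 3.94 in M_WT_5643, 4.31 in M_WT_6258, 4.30 in M_WT_6255 and 14.5 CPM in F_WT_5638. The 4 highest libraries were at least 10.6 CPM and the other 4 at most 5.09 CPM. The log2 fold change in M_KO against M_WT was 1.37 (SE 0.39), and in the F pair the ratio was 0.730 (interval 0.613 to 0.868), again lower in F_KO.

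Zfp991, a zinc finger gene at 147132038 to 147180579 on the plus strand, gave the same 4 libraries at a smaller range. It was 13.0 CPM in M_KO_5944, 21.3 in M_KO_5645, 27.1 in M_KO_5642 and 16.9 in F_KO_5639, against 10.5 in M_WT_5643, 10.8 in M_WT_6258, 12.0 in M_WT_6255 and 17.3 CPM in F_WT_5638. The M groups did not overlap, with a log2 fold change of 0.88 (SE 0.27), and the F ratio of 0.972 had an interval of 0.840 to 1.12, which includes 1. Zfp991 and Znf41-ps are close copies: 56.9% of the 100-base words in the transcripts of Zfp991 also occur in those of Znf41-ps, and 70.0% of those of Znf41-ps occur in Zfp991 (GENCODE M21 transcripts). Whether their counts are separate measurements was not tested, and how the counter treated reads that match several genes is not given in the sources used here.

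Sequence sharing also touched the other expressed zinc finger rows. For Zfp984, 30.9% of 100-base words occurred in another gene, 26.7% in Gm13212, and for Gm13212 27.4% did. With 50-base words it was 54.5% for Zfp984 and 56.8% for Gm13212. Gm13212 had another set of 4 highest libraries than Zfp984, and the part of shared reads in either row was not tested. It was 12.2 CPM in M_KO_5944, 11.1 in M_KO_5645, 12.3 in M_KO_5642 and 7.97 in F_KO_5639, against 11.5 in M_WT_5643, 8.57 in M_WT_6258, 10.8 in M_WT_6255 and 13.8 CPM in F_WT_5638. Its highest and lowest libraries differed 1.73-fold, and the F ratio was 0.579 (interval 0.477 to 0.700). Of the 36 rows, 17 shared under 5% of their 100-base words with any other gene and 8 shared 50% or more.

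Zfp990 (145510759 to 145539188, plus strand) varied widely in another set of libraries. It was 16.4 CPM in M_KO_5944, 14.3 in M_KO_5645, 3.15 in M_KO_5642 and 7.35 in F_KO_5639, against 27.1 in M_WT_5643, 7.19 in M_WT_6258, 24.2 in M_WT_6255 and 7.95 CPM in F_WT_5638. The 4 highest libraries were 2 KO and 2 WT, and the M groups overlapped, with a log2 fold change of -0.79 (SE 0.69). Of its 100-base words 3.60% occurred in another gene, and of its 50-base words 29.1%. The F ratio was 0.925 (interval 0.741 to 1.15). Gm21411 had the same 4 highest libraries, at 10, 7, 0 and 1 counts in M_KO_5944, M_KO_5645, M_KO_5642 and F_KO_5639, against 22, 1, 20 and 1 counts in M_WT_5643, M_WT_6258, M_WT_6255 and F_WT_5638. These 4 libraries were the highest in 2 of 36 rows, one of them Zfp990, which defined the set, and in 193 of 13682 rows of the table (1.41%). The other row, Gm21411, had 35.3% of its 100-base words in other genes. It rests on at most 22 counts per library, so nothing is read from the count of 2 rows.

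**Figure D3:**
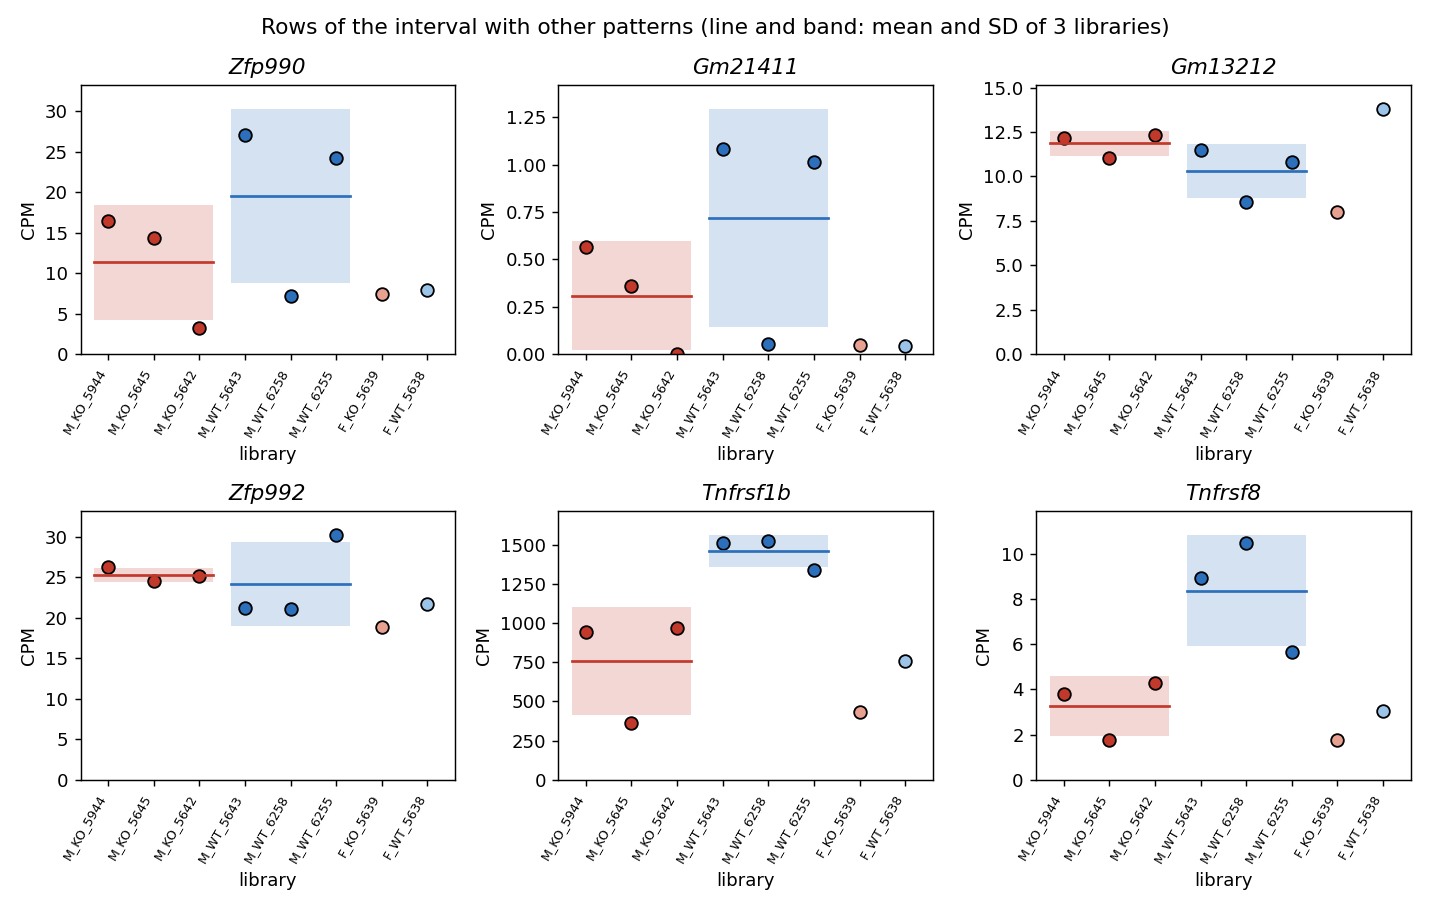
CPM by library of 6 rows of the interval with other patterns, with lines and bands for the mean and SD of the 3 M_KO and the 3 M_WT libraries. Zfp990 and Gm21411 are high in M_KO_5944, M_KO_5645, M_WT_5643 and M_WT_6255, Gm13212 and Zfp992 vary less, and Tnfrsf1b and Tnfrsf8 are lower in every M_KO than in every M_WT library.

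The remaining expressed zinc finger rows varied less than Zfp984, Zfp990 and Znf41-ps. Zfp992 was 18.9 to 26.3 CPM over the 4 KO libraries and 21.1 to 30.2 CPM over the 4 WT libraries. Zfp933 was 7.27 to 11.5 CPM in KO and 5.87 to 9.01 CPM in WT, and 0 of its 100-base words occurred in another gene. Zfp993 was 1.13 to 3.11 CPM in KO and 1.01 to 2.63 CPM in WT, with 71.9% of its 100-base words shared. Genotypes overlapped in each of these 3 rows.

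Rows with few reads are given in counts, and they differed in which libraries were higher. Gm13238, a processed pseudogene, had 1, 9, 3 and 13 counts in M_KO_5944, M_KO_5645, M_KO_5642 and F_KO_5639, against 0, 0, 0 and 8 counts in M_WT_5643, M_WT_6258, M_WT_6255 and F_WT_5638. Gm13246, another processed pseudogene, had 0, 4, 5 and 4 counts in the same KO libraries, against 0, 0, 0 and 1 count in the WT libraries. The lincRNA Gm13166 had 15 counts in M_WT_6255, 9 in F_KO_5639 and at most 2 elsewhere. Some low zinc finger rows leaned the other way. In the same order of libraries, Rex2 had 1, 3, 2 and 1 counts in KO, against 3, 4, 9 and 4 in WT. Zfp985 had 7, 4, 1 and 0 against 5, 10, 13 and 6, and Zfp534 had 2, 1, 0 and 2 against 9, 2, 8 and 1. Not every low zinc finger row did so. Zfp981 had 3, 0, 8 and 3 against 0, 0, 1 and 1, and Zfp986 had 1, 3, 0 and 0 against 0 in each WT library. All rows of this paragraph were picked after their values were seen, and counts this low leave their order uncertain.

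Several neighbours that are not zinc finger genes shared the 4 high libraries of Zfp984. Miip, a gene named for inhibiting cell migration and invasion, was 7.58 CPM in M_KO_5944, 16.3 in M_KO_5645, 17.6 in M_KO_5642 and 14.4 in F_KO_5639, against 4.82 in M_WT_5643, 8.57 in M_WT_6258, 9.62 in M_WT_6255 and 15.1 CPM in F_WT_5638. Plod1, a collagen lysyl hydroxylase, was 75.4, 118, 109 and 110 CPM in those KO libraries, against 64.4, 74.9, 81.5 and 119 CPM in the WT libraries. In both genes M_KO_5944 lay within the range of the M_WT libraries. Neither shares 100-base words with another gene. Fbxo44, the third such neighbour, was at most 2.10 CPM.

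Other neighbours had patterns of their own. Tnfrsf1b, which encodes TNF receptor 2, was 943 CPM in M_KO_5944, 363 in M_KO_5645, 967 in M_KO_5642 and 435 in F_KO_5639, against 1512 in M_WT_5643, 1524 in M_WT_6258, 1341 in M_WT_6255 and 755 CPM in F_WT_5638. Every M_KO library was below every M_WT library, with a log2 fold change of -0.95 (SE 0.36), and the F ratio was 0.576 (interval 0.561 to 0.591). Tnfrsf8, the gene of CD30, was 3.79, 1.74, 4.27 and 1.77 CPM in those KO libraries, against 8.96, 10.5, 5.67 and 3.04 CPM in the WT libraries, with a log2 fold change of -1.36 (SE 0.39) and an F ratio of 0.581 (interval 0.379 to 0.877). For both receptors the direction was the same in the M and F libraries, while F_WT_5638 was below some M_KO libraries. The macrophage and dendritic cell marker sums were also lower in every M_KO than in every M_WT library, and their part in these levels was not tested.

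Mfn2, a mitochondrial fusion GTPase, was the 1 row whose 4 KO libraries were all above the 4 WT libraries. It was 36.6 CPM in M_KO_5944, 39.3 in M_KO_5645, 38.6 in M_KO_5642 and 42.9 in F_KO_5639, against 34.5 in M_WT_5643, 36.5 in M_WT_6258, 35.1 in M_WT_6255 and 35.8 CPM in F_WT_5638. The lowest KO and highest WT library were almost equal, and the log2 fold change was 0.10 (SE 0.11) in the M libraries. Fv1, a restriction gene against murine leukemia virus that derives from a retroviral gag sequence, was 1.30 to 2.95 CPM in KO and 0.689 to 2.24 CPM in WT. Its genotypes overlapped.

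High mean levels per length in the interval belonged to genes outside the zinc finger family. In mean FPKM, Tnfrsf1b was at 255.0, Agtrap at 41.1, 2510039O18Rik at 31.6, Plod1 at 13.8 and Fbxo6 at 12.3. The log2 fold change in M_KO against M_WT was 0.12 (SE 0.15) for Agtrap, an angiotensin receptor binding protein, -0.01 (SE 0.12) for 2510039O18Rik and -0.15 (SE 0.15) for Fbxo6, an F-box protein. At low levels, the log2 fold change was -0.53 (SE 0.62) for the lincRNA Gm26880, 0.45 (SE 0.51) for the lincRNA C230088H06Rik and 1.11 (SE 0.61) for Fbxo44. Smarca5-ps, a pseudogene that did not reach 1 CPM, had 15, 15, 17 and 14 counts in M_KO_5944, M_KO_5645, M_KO_5642 and F_KO_5639, against 14, 4, 3 and 8 counts in M_WT_5643, M_WT_6258, M_WT_6255 and F_WT_5638.

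The expressed rows on either side of the interval's limits were as follows. Vps13d, which starts just outside at 144972622, was 95.6 to 177.4 CPM with a median of 157.2, and Tnfrsf1b, just inside, was 362.6 to 1524 with a median of 955.4. Mtor, the last row inside, was 33.4 to 54.5 CPM with a median of 44.9, and Exosc10, just outside, 52.6 to 61.4 CPM with a median of 58.8.

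Across the 36 rows, the ratio of highest to lowest library on the CPM + 0.5 scale was under 2-fold in 19 (52.8%), against 59.2% of 13682 rows in the table. It exceeded 4-fold in 6 rows (16.7%), namely Zfp984, Zfp990, Tnfrsf8, Gm20707, Gm26880 and Tnfrsf1b, against 9.78% in the table and 4.15% of 627 zinc finger rows elsewhere. Of these 6 rows, 2 were among the 8 zinc finger rows of the interval and 4 among its 28 other rows. The median ratio was 2.45-fold in the 8 zinc finger rows of the interval, 1.68-fold in zinc finger rows elsewhere and 1.80-fold in the table. The 8 rows include Zfp984, whose difference between libraries chose the interval, and the close copies Znf41-ps and Zfp991. These figures are therefore a description.

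In the M comparison, which chose the interval, edgeR's quasi-likelihood test with Benjamini-Hochberg adjustment called 0 of 35 tested rows at an adjusted p of 0.05, against 0.022% of 13646 rows, and 5 at an unadjusted p of 0.05 (Tnfrsf1b, Tnfrsf8, Zfp984, Zfp991 and Znf41-ps), against 9.56%. DESeq2 called Zfp984 alone of 43 rows, against 1.21% of rows, and the authors' deposited table Zfp984 alone of 78, against 0.553%. All M_KO libraries were above all M_WT libraries in 4 rows (background 9.09%) and below them in 2 (6.95%). Since this contrast chose the interval, these counts are a description. The median log2 fold change was 0.17 over the 35 rows, 23 of them above 0, and 0.27 over the 8 zinc finger rows, 7 of them above 0, against 0.01 over all 13646 rows tested.

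For genotype over the 8 libraries, adjusted for the letter, edgeR's quasi-likelihood test called 0 of 35 rows by genotype at an adjusted p of 0.05 (background 0.00727%) and 4 at an unadjusted p of 0.05 (Fbxo44, Tnfrsf1b, Tnfrsf8 and Zfp991; background 9.48%), and DESeq2 called 0 of 43 (0.874%). All KO libraries were above all WT libraries in 1 of 35 rows (Mfn2; background 3.23%) and below them in 0 (2.4%). For Zfp984 this model gave a log2 fold change of 2.28 (SE 0.99). This fit, and that of the difference between the M and F effects, use the M libraries whose Zfp984 values chose the interval. For Zfp984 both are therefore a description. The difference between the M and F effects was called in 0 of 35 rows (background 0.0218%) and, at an unadjusted p of 0.05, in 3 (Gm13212, Zfp984 and Znf41-ps; 4.36%). In the F pair, which is no test, 2 of 35 rows were at least 1 log2 unit higher in F_KO (Fbxo44 and Gm13245; background 4.89%) and 2 lower (C230088H06Rik and Gm13237; 5.71%), and 3 of these 4 were below 2 CPM in both F libraries.

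Rows with the same 4 highest libraries as Zfp984 and a 4th to 5th ratio over 0.5 on the log2 scale numbered 25 of 13682 in the table. The interval held 4 of them, Zfp984 itself, Gm20707, Znf41-ps and Miip, and the rest of chromosome 4 held 3 of its 771 rows, Car6, Fblim1 and Map3k6. Car6, a secreted carbonic anhydrase that starts 2.43 Mb after Zfp984, was 0.736 CPM in M_KO_5944, 9.73 in M_KO_5645, 9.42 in M_KO_5642 and 7.40 in F_KO_5639, against 0.295 in M_WT_5643, 1.01 in M_WT_6258, 0.810 in M_WT_6255 and 13.3 CPM in F_WT_5638. Fblim1, a focal adhesion adaptor at -6.18 Mb from it, was 0.113, 17.1, 3.19 and 5.35 CPM in those KO libraries, against 0.246, 0.107, 0.203 and 10.1 CPM in the WT libraries. These were the 2 rows in the table with a gap of 2 on the log2 scale at these libraries. Both showed a steeper division than Zfp984, and both lie outside the interval. Map3k6, at -14.51 Mb from Zfp984, had a smaller ratio of log2 0.82, and Igfbp4 on chromosome 11 and Prune2 on chromosome 19 had 1.27 and 1.14.

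**Figure D4:**
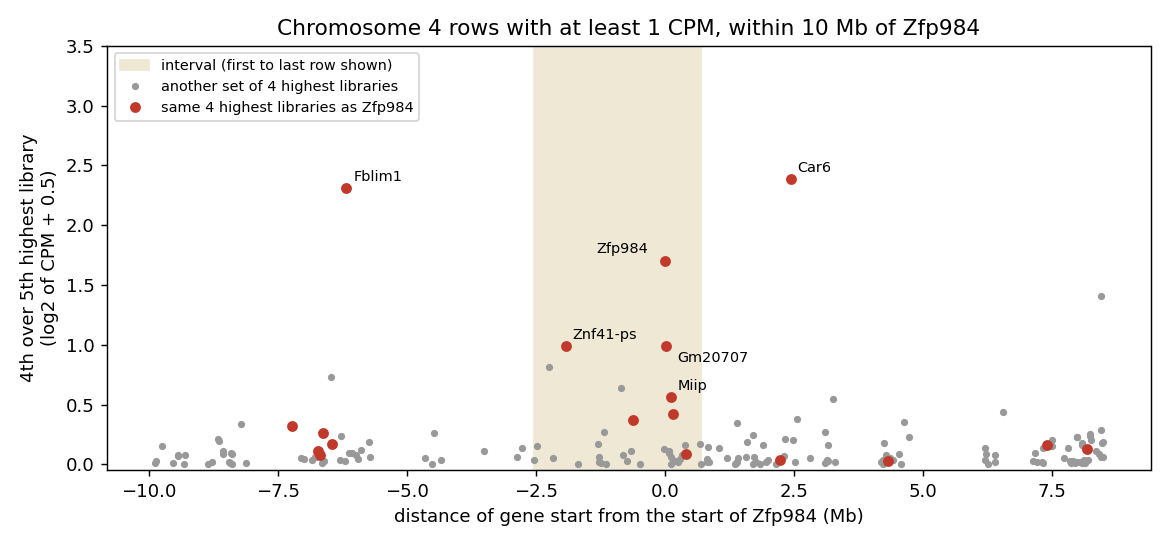
Ratio of the 4th to the 5th highest library, as log2 of CPM + 0.5, against distance of the gene start from the start of Zfp984 in Mb, for chromosome 4 rows with at least 1 CPM within 10 Mb. Red points have the same 4 highest libraries as Zfp984, and the highest 3 are Car6, Fblim1 and Zfp984 at 2.39, 2.31 and 1.70.

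A list of genes of KRAB zinc finger corepression was read in the same M comparison. It also holds Zfp57, which is itself a KRAB zinc finger gene rather than a corepressor. Of 27 symbols listed, 26 were found and tested. After adjustment edgeR's quasi-likelihood test called 0 (background 0.022%), with 1 at an unadjusted p of 0.05 (background 9.56%), and DESeq2 called 0 (background 1.21%). With so few genes, these counts say little about the list. Their median log2 fold change was 0.06, with 16 above 0 and 10 below, against 0.01 over all rows tested. Trim28 averaged 93.6 ± 2.53 CPM in M_KO and 89.0 ± 5.46 CPM in M_WT (SD, n = 3 each), and Setdb1 averaged 25.5 ± 3.98 CPM in M_KO and 26.6 ± 2.81 CPM in M_WT. The gene with the smallest p was Dnmt3a, a de novo DNA methyltransferase, at 39.4, 52.7 and 52.0 CPM in M_KO, against 31.4, 23.9 and 32.1 CPM in M_WT, with a log2 fold change of 0.71 (SE 0.18) that did not pass (edgeR adjusted p = 0.434). In the F pair Dnmt3a was 39.2 CPM in F_KO and 41.1 CPM in F_WT, with 1 library each. The next by p were Chd3 (log2 fold change 0.45), Ehmt2 (0.38), Sumo2 (-0.56), Zfp57 (1.20) and Pphln1 (-0.17), none of which passed. Sumo2 was 61.4 CPM in F_KO and 15.9 CPM in F_WT.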

How the data were processed

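RNA of peritoneal macrophages was measured in 8 libraries, grouped by the letter and genotype in the titles; per the labels' protocols, they were made with an NEBNext Ultra kit. Per the submitters' processing notes, tools included DESeq2 1.16.1, featureCounts 1.5.0-p3 and HISAT2 2.0.5, with GRCm38 and mm10 as builds. Not given in the sources used here are annotation release, strand setting and treatment of multi-mapping reads. The deposited counts are whole reads per gene, with no normalization by the authors. The deposited FPKM values are fragments scaled by gene length and library size. In the comparison table deposited by the authors, per-library values are a signal made from counts by the authors, beside log2 fold changes and p-values.

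CPM was scaled by TMM over the 8 libraries. The test on counts was edgeR 4.0.16 in R 4.3.3 (quasi-likelihood, filterByExpr on genotype, Benjamini-Hochberg adjustment over all rows tested, threshold 0.05), on the 6 M libraries or on all 8 with the letter as a term. The F pair, with 1 library per genotype, got no test (log2 difference with a prior count of 2). Zinc finger rows were those annotated zf-C2H2 or named as such. Alternatives were DESeq2 1.42.0, RLE scaling, other filters, limma 3.58.1 on log2(FPKM + 1) or log2(FPKM + 0.1), other limits for on, off and gap, a term for numbers beginning with 56, and leaving out each library. The fits were tested on simulated data. Rows matched GENCODE M21 by ID and coordinates (125 of 125); upstream sequences are from RefSeq (GRCm38.p6), found for 36 of the 125 rows.

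The interval, gene lists and rules were chosen with earlier results of these data known. Named genes are Men1, Zfp984 and switched or stepped rows. They include up to 10 further rows with the largest M fold change and up to 6 with the highest mean FPKM. Fv1, Tnfrsf1b, Tnfrsf8 and up to 6 genes of the corepressor list with the smallest p are also named. Others are named where a count refers to them, after their values were seen. One gene of the interval that the rule takes is counted with the rows but not reported here.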

Additional observations from a re-analysis of the deposited data

Results flagged for a closer look

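In 3 zinc finger rows every M_KO library was above every M_WT library while F_KO was below F_WT. The M part alone held in 4 of 35 rows of the interval, against 9.09% of 13646 rows. The share of all rows that also had the opposite F direction was not counted. The M values of Zfp984 chose the interval, and Znf41-ps and Zfp991 are close copies. On the log2 CPM scale with a prior count of 2, F_KO minus F_WT was -0.99 for Zfp984, -0.45 for Znf41-ps and -0.0408 for Zfp991. The log2 fold changes fitted by edgeR to the M libraries, another measure, were 3.27, 1.37 and 0.88. These opposite directions were not tested by exchanging libraries, since F has 1 library per genotype. The interaction term of the model over all libraries gave an adjusted p of 0.965 for each of the 3 rows (edgeR quasi-likelihood test, Benjamini-Hochberg adjustment). For Zfp991 the F difference lay within counting error, so its sign is uncertain.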

How the results depend on the processing

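In the M comparison 0 rows of the interval were called by edgeR, with RLE scaling, with no filter or a stricter one, by limma on FPKM and without any 1 library, whereas DESeq2 called 1 (Zfp984). By genotype over all libraries the count was 0 under each alternative run, including the term for numbers beginning with 56. For the corepressor list in the M comparison the count was also 0. The 3 switched rows became 12 with on set at 0.5 CPM, 1 at 2 CPM, 1 with off at 0 counts and 7 with off at 10 counts or fewer, and 2 to 3 without any 1 library. The 0 rows with a gap of 2 became 2 with a gap of 1, and 0 to 1 without any 1 library, with Zfp984 the 1 row without M_KO_5944 or without F_KO_5639. The 4 F pair rows stayed 4 in number with a prior count of 0.5. The 7 rows with the 4 high libraries of Zfp984 were 7 by FPKM ranks and 5 among rows with at least 5 CPM. The causes of these shifts were not tested. Of 200 alternative log2 fold changes for 25 named genes, 5 in 3 genes had the other sign, none in a gene with a change of 0.5 or more. Zfp984 ranged from 2.65 without M_KO_5642 to 3.76 without M_KO_5944.

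No paired analysis was made because the library titles name no pairing of the animals. With 3 libraries against 3, the smallest two-sided exact permutation p is 0.1. Low counts limit the rows near 1 CPM.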
